A study of Mus musculus with 2 samples.

Results

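The genes of 10 SOX transcription factors were compared between cultured mouse neural retinal progenitor cells (mNRPCs) and retina tissue. They were taken by name from the SoxB, SoxC, SoxE and SoxD subgroups and are 10 of 31253 genes in the table, with 32 of its 106754 transcript rows. Each group had 1 library, so no difference has a replicate check and no p-value is given. The mNRPC library was made from C57BL/6 cells and carries P24 in its sample name. According to the methods of the study, such cells were isolated from the neural retina of mice 8 to 10 weeks old and kept in a defined medium with 10 ng/ml basic fibroblast growth factor (bFGF) and 2 μM CHIR99021, which inhibits glycogen synthase kinase 3. The other library was made from C57BL/6 retina tissue, whose age and number of animals are not given in the sources used here. It was retina without a named treatment, while the cells had been dissociated, plated on Matrigel and passaged, so culture and cell type cannot be told apart.

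SOX proteins bind DNA through a high mobility group (HMG) box and usually act with partner factors. SOX2, of the SoxB1 subgroup, keeps neural and retinal progenitors in a self-renewing state, and SOX21, of SoxB2, acts as a repressor on SoxB targets. SoxC factors are known for neuronal differentiation and survival, SoxE factors for glia and the neural crest, and SoxD factors, which lack a transactivation domain of their own, as cofactors of SoxE. In the adult retina SOX2, SOX8 and SOX9 are known from Müller glia, and SOX2 also from cholinergic amacrine cells.

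The sequences below show what the 10 genes share. Among 60-base stretches of the Sox2 coding sequence, this is the one most alike in the other 9 genes, and it lies in the part that encodes the HMG box. It is at chr3:34650541-34650600 on the plus strand (GRCm38, GENCODE M21). Capitals mark bases that differ from Sox2.
Sox1: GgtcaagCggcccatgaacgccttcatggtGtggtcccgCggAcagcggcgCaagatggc
Sox2: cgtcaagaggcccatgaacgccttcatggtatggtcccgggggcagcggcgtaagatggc
Sox3: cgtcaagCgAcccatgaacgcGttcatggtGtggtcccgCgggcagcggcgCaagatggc
Sox21: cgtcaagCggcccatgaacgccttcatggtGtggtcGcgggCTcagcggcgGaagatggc
Sox4: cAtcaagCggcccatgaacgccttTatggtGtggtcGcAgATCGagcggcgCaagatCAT
Sox11: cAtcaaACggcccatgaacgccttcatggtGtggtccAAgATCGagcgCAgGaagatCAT
Sox8: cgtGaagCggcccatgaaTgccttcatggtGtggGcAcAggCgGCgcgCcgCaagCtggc
Sox9: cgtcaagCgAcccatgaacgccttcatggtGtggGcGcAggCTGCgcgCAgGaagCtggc
Sox10: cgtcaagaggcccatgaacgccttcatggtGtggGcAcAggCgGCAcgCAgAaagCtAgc
Sox5: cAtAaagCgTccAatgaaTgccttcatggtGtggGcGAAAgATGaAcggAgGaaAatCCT
The other SoxB genes Sox1, Sox3 and Sox21 each differed from Sox2 at 6 of 60 bases. SoxE genes differed at 13 or 14, Sox4 at 14, Sox11 at 16 and Sox5 at 22. Sox4 and Sox11 had 53 of the 60 bases in common, and so had each pair of Sox8, Sox9 and Sox10. The longest run of identical bases in 2 of the transcripts was 48, between Sox4 and Sox11, then 45 between Sox1 and Sox3, and 0 of 45 pairs shared 50 or more. Outside the HMG box the genes differ in build. The SoxB and SoxC members have 1 exon in GENCODE M21, the SoxE members 3 or 4, and the Sox5 transcript used here 14.

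Sox2 had the highest level of the Sox genes in both libraries and was higher in mNRPCs. Its level was 231 FPKM in mNRPCs and 18.5 FPKM in retina, where FPKM counts fragments relative to the length of the transcript and to all mapped fragments of the library. This was 12.4 times the retina level, with a 95% interval of 10.7 to 14.4 that covers counting error only, from an estimated 3120 and 190 fragments. Sox2 ranked 348th of all genes in mNRPCs and 4176th in retina. On the log2(FPKM + 1) scale its ratio was 3.57, against a median of −0.12 over the 13780 genes with at least 1 FPKM in a library. Sox2 held 82.8% of the summed FPKM of the 10 genes in mNRPCs and 56.4% in retina, shares that do not depend on how the libraries are scaled to each other. At the protein level, the paper reports SOX2 in mNRPCs by immunofluorescence.

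The other SoxB genes among the 10 were listed at 0 in retina, and in mNRPCs Sox3 and Sox21 had values far below that of Sox2. Sox3, a SoxB1 gene with functions that overlap those of Sox2, had 1.15 FPKM in mNRPCs (15.6 estimated fragments), and retina had it listed at 0. Sox1, the remaining SoxB1 gene, was listed at 0 in both libraries. SoxB1 RNA was thus Sox2 to 99.5% in mNRPCs, and in retina no other SoxB1 gene had a value above 0. Sox21 was at 3.79 FPKM in mNRPCs (94.7 fragments) and listed at 0 in retina. In retina 3 fragments would be 0.292 FPKM for Sox3 and 0.159 FPKM for Sox21. A value of 0 may be a failed estimate, but these data do not settle it. Of 81 ribosomal protein genes, picked by symbol, 4 in mNRPCs and 2 in retina were also listed at 0. The symbols can include paralogs that few tissues express, so these counts do not show failed estimates. In retina 5 of the 81 were below 1 FPKM, among them Rps19 at 0.0586 FPKM, against 10.2 in mNRPCs. A low value above 0 may be in error too, which the counting intervals do not cover. A gene at 0 is therefore described as listed at 0, with no fold against it, and where such a gene enters a count or a plot of log2 ratios the size of its ratio is set by the constant of 1 FPKM.

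Sox2 lies inside Sox2ot, a noncoding gene on the same strand. Sox2ot was at 8.67 FPKM in mNRPCs and 2.44 FPKM in retina, which is 3.56 times the retina level, and its exons cover 0 of the 2057 exon bases of Sox2 in GENCODE M21. The Sox2 level was 26.6 times that of Sox2ot in mNRPCs and 7.60 times in retina. Sox1ot, which overlaps Sox1, was at 0.0556 and 0.0739 FPKM.

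The SoxC genes Sox4 and Sox11 were both higher in mNRPCs. Sox4 was at 22.8 FPKM in mNRPCs and 2.76 FPKM in retina, or 8.25 times the retina level (95% counting interval 6.39 to 10.8). Sox11 was at 6.39 and 0.244 FPKM, or 26.2 times (14.2 to 55.5), where the low retina value rests on an estimated 10.1 fragments. Their log2 ratios were 2.66 and 2.57. The third SoxC gene went the other way. Sox12, which is not among the 10, was at 0.712 FPKM in mNRPCs and 12.5 FPKM in retina, and so was 17.6 times higher in retina (11.2 to 28.7). Sox4 made up 76.2% of SoxC FPKM in mNRPCs and 17.8% in retina, while Sox12 made up 2.38% and 80.7%. The SoxC sum was 29.9 FPKM in mNRPCs and 15.5 FPKM in retina, a ratio of 1.92 (1.35 with a common sum), which was smaller than the fold of any single SoxC gene.

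The SoxE genes also differed among themselves. Sox9, which acts in neural stem cells, Müller glia and cartilage, was at 13.2 FPKM in mNRPCs and 3.28 FPKM in retina. This was 4.02 times the retina level (95% counting interval 3.11 to 5.34), with a log2 ratio of 1.73. Sox8, its close relative in glia, was at 0.246 FPKM in mNRPCs and 7.86 FPKM in retina. Sox8 was 31.9 times higher in retina (12.9 to 97.1), where the mNRPC value rests on an estimated 4.86 fragments, and its log2 ratio was −2.83. Sox10, the SoxE gene of oligodendrocytes, Schwann cells and melanocytes, had a listed value of 0 in mNRPCs and 0.0606 FPKM in retina, or 0.817 estimated fragments, under the limit of 3, so no difference is given. SoxE FPKM was Sox9 to 98.2% in mNRPCs and Sox8 to 70.2% in retina. The ratio of Sox9 to Sox8 was 53.5 in mNRPCs and 0.417 in retina. The SoxE sum was 13.4 FPKM in mNRPCs and 11.2 FPKM in retina, a ratio of 1.20 that turned to 0.840 with each library rescaled to a common sum.

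**Figure D1:**
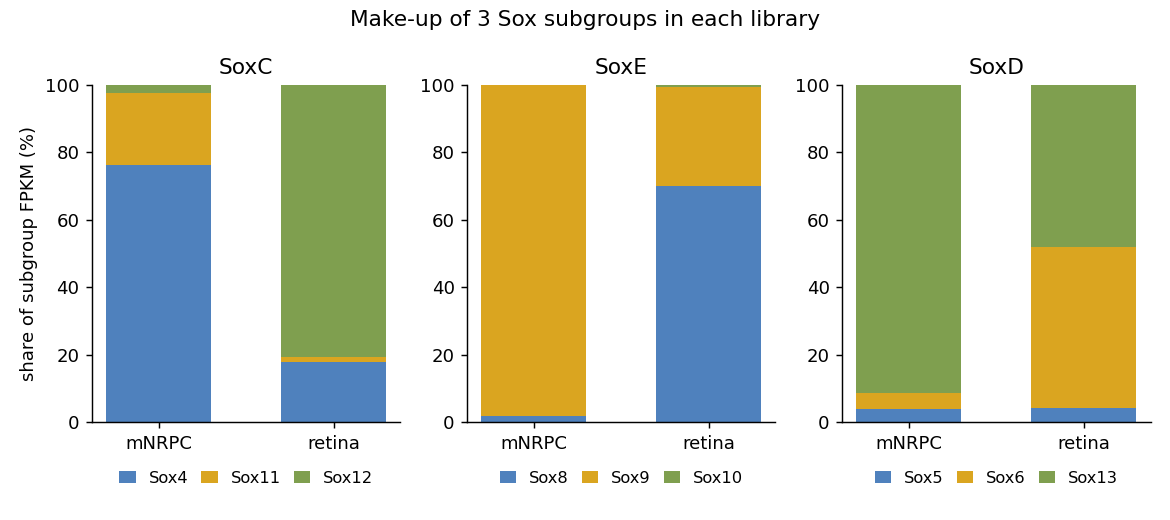
Share (%) of each gene in the summed FPKM of the SoxC, SoxE and SoxD subgroups, with 1 bar per library. Sox4 and Sox9 fill most of the SoxC and SoxE bars of mNRPCs, at 76.2% and 98.2%, where Sox12 and Sox8 fill most of the retina bars, at 80.7% and 70.2%.

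Sox5, the SoxD member, was low in both libraries, at 0.434 FPKM in mNRPCs and 0.116 FPKM in retina. It was the 1 member with more than 1 transcript row. Of its 23 rows, 7 held at least 0.01 FPKM in mNRPCs and 2 in retina, and the highest row took 40.6% and 81.5% of the gene. At a length of 2526 bp the retina value would be an estimated 1.45 fragments, under the limit of 3. That length is of a curated row listed at 0 in retina, and the highest retina row has no known length. Another curated row has 7243 bp, and a longer length would give more fragments. The other SoxD genes are not among the 10. Sox13 was at 10.2 FPKM in mNRPCs and 1.33 FPKM in retina, 7.63 times the retina level (5.11 to 12.4), and held 91.4% of SoxD FPKM in mNRPCs against 47.9% in retina. Sox6 was at 0.523 and 1.33 FPKM, and so was 2.55 times higher in retina (1.59 to 4.18). Its log2 ratio of −0.62 passed the threshold with a common sum (−1.14) and with a constant of 0.1 FPKM in place of 1. Most Sox13 FPKM lay on predicted transcript rows. The interval of Sox13 uses the length of its curated row, 3693 bp, which held 13.9% of its FPKM in mNRPCs and 5.52% in retina. On its curated row alone Sox13 had 1.42 FPKM in mNRPCs and 0.0734 in retina, where it was under the limit of 3 fragments, and on curated rows its SoxD shares were 84.3% and 9.06%.

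Within each library the order of levels was clear for the upper genes. In mNRPCs it ran Sox2, Sox4, Sox9, Sox11, Sox21 and Sox3, and the 95% counting intervals of neighbours did not overlap down to Sox3. The interval of Sox5 (0.169 to 0.868 FPKM) overlapped those of both Sox3 (0.673 to 1.91) and Sox8 (0.0823 to 0.591), which did not overlap each other. In retina it ran Sox2, Sox8, Sox9 and Sox4, and the intervals of Sox9 (2.53 to 4.14 FPKM) and Sox4 (2.14 to 3.52) overlapped. Sox11 followed at 0.116 to 0.445 FPKM. The members with at least 10 FPKM were Sox2, Sox4 and Sox9 in mNRPCs and Sox2 in retina.

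**Figure D2:**
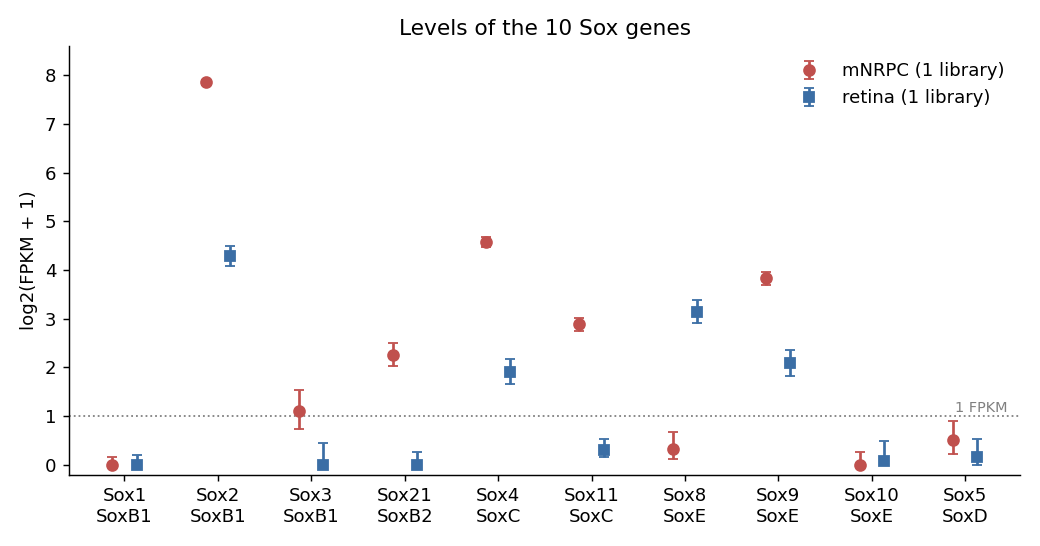
Level of each Sox gene as log2(FPKM + 1) in the mNRPC library (circles) and the retina library (squares), where bars are 95% Poisson intervals of the estimated fragments and cover counting error only. Sox2 is the highest of the 10 genes in both libraries, and Sox8 is above 1 FPKM in retina only.

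Of the 10 genes, 7 had at least 1 FPKM in a library. A log2 ratio of at least 1 in size was called, which held for 54.4% of the 13780 genes so filtered. Of the 7 Sox genes, 6 were called higher in mNRPCs, beside 24.5% of all genes, and Sox8 was called lower, beside 30.0%. Of the 6, Sox3 and Sox21 were counted against a listed 0 in retina. Only Sox2, Sox4 and Sox9 reached 1 FPKM in both libraries. Sox3, Sox11 and Sox21 passed the filter through mNRPCs alone and Sox8 through retina alone, so their level had to be higher in that library, and their count is no support for a direction. Sox1, Sox5 and Sox10 did not pass. In all, the 10 genes summed to 278.6 FPKM in mNRPCs and 32.9 FPKM in retina, 0.0452% and 0.00760% of all FPKM.

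None of the calls of the 10 Sox genes changed under the 3 other scalings tried. Over all genes the median ratio was −0.12 with the deposited values, −0.23 with trimmed mean scaling, −0.17 with upper quartile scaling and −0.68 after rescaling each library to a common sum. Over these scalings Sox2 ranged from 3.09 to 3.57, Sox4 from 2.36 to 2.66, Sox11 from 2.47 to 2.86, Sox9 from 1.38 to 1.73 and Sox8 from −3.78 to −2.83. Sox12 ranged from −3.80 to −2.98 and Sox13 from 2.10 to 2.26.

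**Figure D3:**
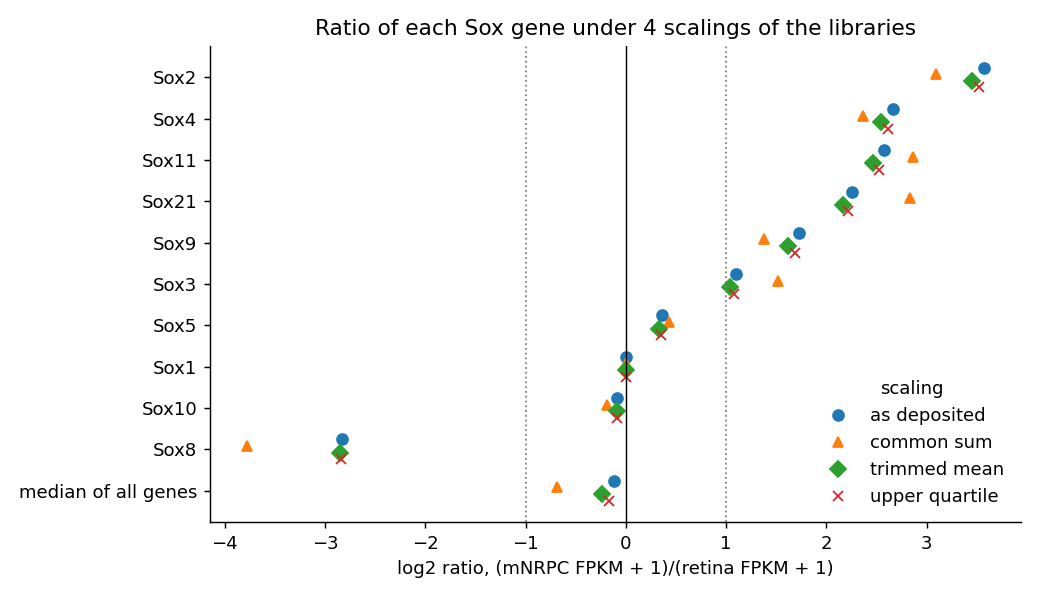
Log2 ratio of (mNRPC FPKM + 1) to (retina FPKM + 1) for each Sox gene and for the median of all genes under 4 scalings of the libraries, with dotted lines at the 2-fold threshold. The ratios of Sox3 and Sox21 are against a listed 0 in retina, and Sox8 lies below −2.8 and Sox2 above 3.0 under each of the scalings drawn.

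The promoters of Sox2, the highest member, Sox11, the higher member with the largest fold that could be given, and Sox8, the member that was lower, are shown to set the sequence beside the members that the results turn on. Each runs from 250 bases before to 50 bases after the start site (RefSeq, GRCm38.p6), and 7 of the 10 members had an entry. Capitals mark matches, on either strand, to 5 short motifs, which are the SOX cores ACAAAG and ACAATG, the GC box GGGCGG, the CCAAT box (CCAAT) and the TATA box TATAAA.
Sox2, chr3:34649745-34650044, plus strand: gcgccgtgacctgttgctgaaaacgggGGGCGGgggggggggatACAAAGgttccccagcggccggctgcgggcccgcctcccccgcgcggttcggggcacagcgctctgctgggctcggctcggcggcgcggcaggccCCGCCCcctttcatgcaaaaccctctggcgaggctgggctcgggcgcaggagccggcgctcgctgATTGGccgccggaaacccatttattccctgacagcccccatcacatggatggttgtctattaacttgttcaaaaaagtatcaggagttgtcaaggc
Sox11, chr12:27342669-27342968, minus strand: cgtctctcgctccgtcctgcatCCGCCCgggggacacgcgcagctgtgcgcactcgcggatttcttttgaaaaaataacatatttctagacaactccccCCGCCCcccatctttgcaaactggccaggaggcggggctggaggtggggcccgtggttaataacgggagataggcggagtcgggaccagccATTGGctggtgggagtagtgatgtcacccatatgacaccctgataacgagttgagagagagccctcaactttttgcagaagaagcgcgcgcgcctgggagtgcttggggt
Sox8, chr17:25570637-25570936, minus strand: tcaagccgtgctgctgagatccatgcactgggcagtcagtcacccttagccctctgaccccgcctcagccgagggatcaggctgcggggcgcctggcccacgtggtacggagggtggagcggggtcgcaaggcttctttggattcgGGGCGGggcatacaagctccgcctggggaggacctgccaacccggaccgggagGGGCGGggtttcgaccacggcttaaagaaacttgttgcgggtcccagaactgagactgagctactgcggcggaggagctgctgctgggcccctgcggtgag
The Sox2 promoter held 1 ACAAAG, found in 18.7% of 32851 promoters, besides a pair of GC boxes and 1 CCAAT box. Sox11 had GC boxes and a CCAAT box, and Sox8 had GC boxes only. GC boxes were found in 35.7% and CCAAT boxes in 37.4% of all promoters. Of the 7 members, 4 had a GC box and 4 a CCAAT box, and 0 had the TATA box letters, which 13.6% of all promoters had. ACAATG was found in the promoter entry of Sox5 and in 12.6% of all. That entry, chr6:143947057-143947356 on the minus strand, lies inside the gene (143828425-144782287), so it is an internal start site. GC content was 66.3% for Sox2 and Sox8 and 58.7% for Sox11, against a median of 52.7%. GC boxes were found for Sox1, Sox2, Sox8 and Sox11 and not for Sox4, Sox5 and Sox21. A match describes these letters only.

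Partners and targets of SOX factors, with other genes of the same lineages, were counted in 4 lists. Over all genes 24.5% were called higher and 30.0% lower. Genes with at least 1 FPKM in retina alone had to be lower in mNRPCs, and those with it in mNRPCs alone had to be higher. The counts over a list therefore do not show a direction. Counts over the genes with 1 FPKM in both libraries are given too. The same share over all genes so restricted was not computed, so these counts have no background beside them. Of 22 SOX2 partners and neural progenitor genes, 17 could be compared, of which 3 were higher, 11 lower and 3 between, with a median log2 ratio of −1.82. Of the 11 lower genes 8 passed the filter through retina alone, and of the 3 higher genes 1, Nes, through mNRPCs alone. Of the 7 genes with 1 FPKM in both libraries 2 were higher and 3 lower. The 3 higher genes were Nes (9.42 FPKM in mNRPCs and 0.841 in retina), whose neural enhancer is bound by SOX2 with POU factors, Notch1 (12.6 and 3.34 FPKM), and Hes1, a Notch effector (33.9 and 15.2 FPKM). The log2 ratio of Hes1 was 1.11, and it was under the threshold with trimmed mean scaling (0.99) and with a common sum (0.63). Hes5, in the same list, passed the filter through retina alone, with 5.60 FPKM there and a listed 0 in mNRPCs. The POU factor genes Pou3f1 and Pou3f3 had 1.69 and 1.65 FPKM in retina, and both were listed at 0 in mNRPCs. Rax, an eye field factor gene that SOX2 and OTX2 activate, had 81.7 FPKM in retina and a listed value of 0 in mNRPCs. The paper, by contrast, reports RAX expression in mNRPCs by RT-PCR. Otx2 itself was at 0.0713 and 119 FPKM. Rods and bipolar cells of the adult retina express Otx2.

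Of 14 SoxC targets in neurons, 12 could be compared. Of these 1 was higher and 11 were lower, with a median of −2.49. Of the 11 lower genes 6 passed the filter through retina alone, and of the 6 genes with 1 FPKM in both libraries 1 was higher and 5 were lower. The higher gene was Tead2, a direct SoxC target in progenitors, with 82.1 FPKM in mNRPCs against 2.31 in retina. Tubb3, which encodes a neuronal tubulin and is activated by SOX11, had 15.4 FPKM in mNRPCs against 63.4 in retina. Neurod1 (263 FPKM in retina) and Stmn2 (44.0 FPKM) were both listed at 0 in mNRPCs. The 8 markers of ganglion cells, of which Pou4f1 and Pou4f2 are also in this list, summed to 4.82 FPKM in mNRPCs against 541 in retina. All 8 were lower, but 6 of them passed the filter through retina alone. Their part in the result was not tested.

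The SoxE list holds 19 genes of glia and the neural crest, and not all of them are targets of SoxE factors. Of the 19, 11 could be compared, with 3 higher, 6 lower and 2 between (median −1.21). All 6 lower genes passed the filter through retina alone, and of the 3 higher genes 1, Snai2, through mNRPCs alone. Of the 4 with 1 FPKM in both libraries 2 were higher and 0 lower. The median was −0.51 when the highest row stood for each gene. The higher genes were Nfib, a gliogenic factor gene (35.6 FPKM in mNRPCs and 4.75 in retina), Tfap2a, a neural crest factor gene that amacrine cells also express (31.3 and 7.08 FPKM), and Snai2, a neural crest factor gene that mesenchymal cells also express (8.54 FPKM and listed at 0). Mbp, a myelin gene (6.45 FPKM in retina), and Dct, a pigment cell gene (15.2 FPKM), were both listed at 0 in mNRPCs. Of 11 cartilage targets of SOX9 and the SoxD factors, 7 could be compared, with 1 higher and 6 lower (median −2.61), and 5 of the 6 lower genes passed the filter through retina alone. Of the 2 with 1 FPKM in both libraries, 1 was higher and 1 lower. Col11a1 was the higher one, with 25.3 FPKM in mNRPCs against 2.21 in retina. Col2a1, the best known SOX9 target in cartilage, had 20.1 FPKM in retina and a listed value of 0 in mNRPCs.

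**Figure D4:**
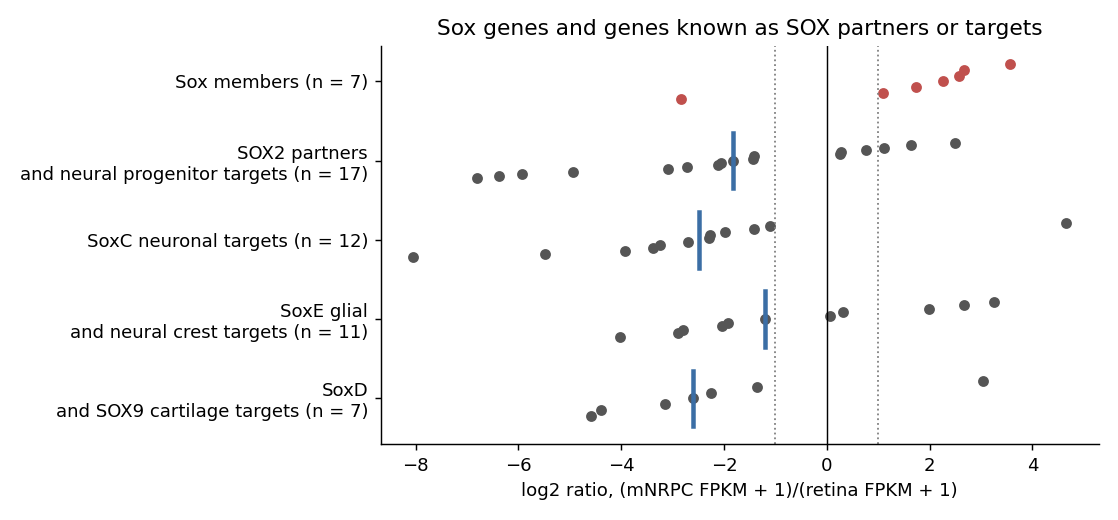
Log2 ratio of (mNRPC FPKM + 1) to (retina FPKM + 1) for each gene with at least 1 FPKM in a library. Red marks 7 of the 10 Sox genes, and grey marks 4 lists of SOX partners, targets and other genes of the same lineages. Blue bars are at list medians and dotted lines at the 2-fold threshold. The list medians lie between −2.61 and −1.21, and of the 7 Sox genes drawn Sox8 lies below 0.

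The libraries held an estimated 6.58e+06 fragments (mNRPCs) and 4.97e+06 fragments (retina), a ratio of 1.32. Markers of retinal cell types were read beside these values, since in bulk RNA fewer cells of a type and less RNA per cell cannot be told apart. Beside the counts below, 30.0% of all genes were lower, and a marker with 1 FPKM in retina alone could only come out lower. Of 10 Müller glia markers 9 were lower in mNRPCs, and their sum was 86.8 FPKM against 2316. Vim, which many cultured cells express, was the exception, at 3138 FPKM in mNRPCs and 101 in retina. Rlbp1 was at 0.0986 and 202 FPKM and Slc1a3 at 0.0299 and 44.8 FPKM. Of these 9 markers 5 passed the filter through retina alone. The 5 astrocyte markers compared all passed through retina alone, and their list summed to 0.426 FPKM in mNRPCs against 80.3, with Gfap listed at 0 in mNRPCs. For GFAP the paper reports the opposite, expression in mNRPCs by immunofluorescence and by RT-PCR. Chat, Slc18a3 and Slc5a7, which define cholinergic amacrine cells, had 2.67 to 3.64 FPKM in retina and were listed at 0 in mNRPCs, and Isl1, also in the SoxC list, was at 2.25 and 29.9 FPKM. The fifth marker, Megf10, went the other way, at 9.39 FPKM in mNRPCs against 4.21 in retina (log2 ratio 0.996, just under the threshold). Beside Sox10, the oligodendrocyte markers Mog and Mag were listed at 0 in both libraries, and Mbp, as above, in mNRPCs. The 6 melanocyte and pigment epithelium markers compared all passed through retina alone, and their list summed to 0.309 FPKM in mNRPCs against 94.5. Beside Sox2, which pluripotent cells also express, 2 of 6 pluripotency markers could be compared. Esrrb, which rods also express, was lower in mNRPCs (0.0650 and 114 FPKM), and Nanog was between the thresholds (0.282 and 1.20 FPKM, log2 ratio −0.78), but past the lower one with a common sum (−1.38). Pou5f1, Zfp42 and Dppa5a were listed at 0 in both libraries.

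All 11 rod markers were lower in mNRPCs, of which 7 passed the filter through retina alone, and their sum was 12.1 FPKM against 25635 in retina. The median rod marker in mNRPCs was at 0.0533% of its retina level. Sox8 in mNRPCs was at 3.13% of its retina level and Sox12 at 5.68%. The part of these cell types in the differences of the Sox genes was not tested.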

How the data were processed

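RNA sequencing values of 1 mNRPC and 1 retina library were used, grouped by the labels. The authors deposited FPKM per RefSeq transcript. Their methods describe Bowtie 2 and eXpress in a text on treated cells, whereas the submitters' processing notes name TopHat2 2.0.10 and GRCm38.p3, so the program that made the values is uncertain, as is its way of dividing reads that fit several transcripts. The annotation release is not given in the sources used here. Accessions without version were matched to RefSeq GRCm38.p6, then GENCODE M21, which named 69.6% of 106754 rows, and rows were summed per symbol. Patch releases of GRCm38 share chromosome coordinates. Values under 1e-06 FPKM were read as 0.

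The log2 ratio is log2((mNRPC FPKM + 1)/(retina FPKM + 1)), which understates changes of low genes. Genes with at least 1 FPKM in a library were compared, and a ratio of at least 1 in size was called. Nothing was tested, as each group had 1 library.

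Depth was estimated from genes with 1 row and at least 1500 bp, whose lowest FPKM × length values gather at the worth of 1 fragment. It came to 6.58e+06 fragments for mNRPCs and 4.97e+06 for retina. The step was checked on simulated data, but no result of that check is given here, so its error is not stated. Fragments of single genes use GENCODE lengths, which differ from RefSeq by up to 19.9% (Sox2) among members with 1 exon. A gene with several rows, such as Sox5, Sox6 or Sox13, takes the length of 1 curated row. Its fragments and intervals are therefore less certain. Exact 95% intervals (Poisson for levels, Clopper-Pearson for folds) and the limit of 3 fragments cover counting error only.

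One marker gene is not reported here. The members and lists were chosen with earlier results of these data known. All 10 members were named, and of each list the 4 highest and 4 lowest ratios and genes listed at 0 could be named. Python 3.11.15, numpy 2.4.6, pandas 2.3.3, scipy 1.17.1 and matplotlib 3.10.9 were used.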

Additional observations from a re-analysis of the deposited data

How the results depend on the processing

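With another pseudocount, the 3 other scalings, curated rows or the highest row, the 7 calls of single Sox genes were as before, on 60 values of which 47 stayed within counting error and 13 moved in size without a change of sign. The median log2 ratio of the 10 genes, 1.42, was 2.49 with a pseudocount of 0.1 FPKM, a smaller constant that shrinks low genes less, and 1.33 to 1.45 under the scalings. Of the 10 genes, 6 were higher in mNRPCs, and 4 at a minimum of 5 FPKM or at a log2 threshold of 2, fewer by construction. The median of all genes, −0.12, was −0.68 after rescaling to a common sum, −0.23 with trimmed mean scaling, −0.00992 with curated rows only and 0 without a filter on low values. At a minimum of 5 FPKM it turned to 0.0387, and the cause was not tested. The share of Sox2 among the 10 genes stayed between 82.8% and 82.9% in mNRPCs and between 56.4% and 56.6% in retina with curated rows or the highest row, which change Sox5 only. List medians moved more. With a pseudocount of 0.1 FPKM they were −3.48 (SOX2 partners), −4.21 (SoxC), −2.87 (SoxE) and −5.70 (cartilage), with a common sum −2.48, −3.27, −1.63 and −3.45, with curated rows −1.27, −1.98, −1.02 and −2.61, and with the highest row −1.42, −1.92, −0.51 and −2.61. Values under 3 estimated fragments (Sox10, and Sox5 in retina at the length used) or listed at 0 give no fold. Whether depth or a failed estimate lies behind a listed 0 was not tested. The fold of Sox8 rests on few mNRPC fragments. No paired analysis was possible because both groups consist of a single library.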

Other observations

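Of the Sox genes outside the subgroups above, those of SoxF act in endothelial cells. Sox18 and Sox17 had 1.47 and 0.612 FPKM in retina, and both were listed at 0 in mNRPCs. Sox7 had 0.582 FPKM in mNRPCs (12.6 estimated fragments), and its 0.113 FPKM in retina was under the limit of 3 fragments. Of 5 endothelial markers compared 4 were lower in mNRPCs, beside 30.0% of all genes, but these 4 passed the filter through retina alone. Cldn5 was listed at 0 in mNRPCs against 6.04 FPKM in retina, and Kdr, which other retinal cells express too, had 0.0219 against 29.5 FPKM. Egfl7 was between the thresholds (log2 ratio −0.54), but past the lower one with a common sum (−1.05). Sox15 and Sox30 had listed values of 0 in mNRPCs and were under 3 estimated fragments in retina. Sox14 and Sry were listed at 0 in both libraries. Over all 20 Sox genes the sum was 290.6 FPKM in mNRPCs and 50.9 FPKM in retina.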
